A study of Homo sapiens with 4 samples.

Results

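The genes described here are the 10 members of the menin-KMT2A and DOT1L chromatin machinery, namely KMT2A, MEN1, PSIP1, DOT1L, MLLT1, MLLT3, MLLT10, AFF1, AFF4 and KAT7. They were chosen by symbol through their Ensembl identifiers and make up 10 of the 58037 genes in the count table, and all 10 were among the 15718 genes that passed the filter on low counts. OCI-AML3 is an established human acute myeloid leukemia (AML) line with a heterozygous NPM1 mutation (mtNPM1), a heterozygous DNMT3A mutation and a homozygous NRAS mutation, all of which both conditions carry. Paired-end RNA-Seq was made from cells transfected with sgRNA Ctrl (sgNeg in the labels, 2 libraries) or with sgNPM1A, a CRISPR-Cas9 guide directed at mtNPM1 (2 libraries), and harvested after 72 hours, day 3 of the labels. The transfected population was sequenced in bulk, with no selection of edited clones described, so edited and unedited cells are read together, and fewer cells of a type cannot be told apart from less RNA per cell. The comparison asks how the knockout (KO) of mtNPM1 changed the mRNA of this machinery.

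As background, menin (MEN1) docks the histone methyltransferase KMT2A on chromatin together with LEDGF (PSIP1), and the complex places the H3K4 methyl mark on active promoters. KMT2A also meets another group of proteins, which includes the H3K79 methyltransferase DOT1L, its cofactor AF10 (MLLT10), the acetyl-histone readers ENL (MLLT1) and AF9 (MLLT3), and the elongation scaffolds AFF1 and AFF4. In AML with mtNPM1 these complexes sustain HOX and MEIS1 expression, and menin, DOT1L and the acetyltransferase KAT7 have each been studied as drug targets.

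KMT2A reads DNA through a CXXC zinc finger that binds unmethylated CG dinucleotides. The sequences upstream of the 4 members with a Benjamini-Hochberg (BH) adjusted p under 0.05, all lower in sgNPM1A, are therefore shown with CG in capitals. Each is the 250 bases before the first RefSeq start, 5′ to 3′ on the gene's strand, on GRCh38.p14, at chr11:118436242-118436491 (+) for KMT2A, chr4:86934761-86935010 (+) for AFF1, chr19:6279976-6280225 (-) for MLLT1 and chr9:15510971-15511220 (-) for PSIP1.
KMT2A: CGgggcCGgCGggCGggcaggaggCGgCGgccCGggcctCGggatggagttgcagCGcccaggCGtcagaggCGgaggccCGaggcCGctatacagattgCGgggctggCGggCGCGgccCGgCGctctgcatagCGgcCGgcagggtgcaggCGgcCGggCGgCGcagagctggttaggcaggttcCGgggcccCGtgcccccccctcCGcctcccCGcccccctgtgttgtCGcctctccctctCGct
AFF1: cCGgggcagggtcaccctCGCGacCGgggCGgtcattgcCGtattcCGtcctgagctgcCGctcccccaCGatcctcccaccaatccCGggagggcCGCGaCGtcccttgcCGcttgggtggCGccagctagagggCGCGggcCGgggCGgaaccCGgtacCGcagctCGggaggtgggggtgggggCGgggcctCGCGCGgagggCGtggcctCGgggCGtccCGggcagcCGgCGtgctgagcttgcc
MLLT1: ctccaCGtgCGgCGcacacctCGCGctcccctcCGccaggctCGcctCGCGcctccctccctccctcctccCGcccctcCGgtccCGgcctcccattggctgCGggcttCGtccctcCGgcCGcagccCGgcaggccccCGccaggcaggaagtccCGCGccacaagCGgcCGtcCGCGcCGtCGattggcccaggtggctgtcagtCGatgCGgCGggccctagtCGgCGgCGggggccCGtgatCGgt
PSIP1: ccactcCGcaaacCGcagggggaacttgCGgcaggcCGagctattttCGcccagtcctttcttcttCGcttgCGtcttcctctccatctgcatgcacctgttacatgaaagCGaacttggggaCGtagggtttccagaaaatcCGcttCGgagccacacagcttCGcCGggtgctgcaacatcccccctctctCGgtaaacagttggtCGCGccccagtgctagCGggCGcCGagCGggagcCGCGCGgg
These windows hold 31 CG dinucleotides in KMT2A, 32 in AFF1, 34 in MLLT1 and 23 in PSIP1, against a median of 11 in the 35116 RefSeq promoters of the same length. CG reads alike on both strands. As many or more CG were found in 6.84% of all promoters for the MLLT1 window and in 25.8% for the PSIP1 window, so the 4 differ among themselves. Windows were read for 13 starts of 9 members (DOT1L had no entry), and all 13 were at or above the median, including those of members that did not pass the test. The letters TGATNNAT, a HOX-PBX pattern searched on both strands, were in 0 of these 13 windows and in 6.47% of all promoters. Binding of KMT2A or of HOX proteins was not measured in these libraries.

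Total counts were between 25069484 and 28276391 per library, at which depth 3 counts correspond to 0.108 to 0.118 CPM, the count of a gene scaled by its library's total after TMM (trimmed mean of M values) normalization. Mitochondrial genes took 8.37% to 8.63% of the counts. The targeted gene NPM1 was measured at 1318.7 and 1385.4 CPM in sgRNA Ctrl and at 1189.4 and 1131.9 CPM in sgNPM1A, a log2 fold change of -0.22 ± 0.07 (SE) with an edgeR quasi-likelihood adjusted p of 0.0360. Reads of both alleles are added up in these values, which do not show the allele that was cut. With the replicate number as a block the adjusted p of NPM1 was 0.156, and 3 of the 4 fits that left out a library were also above the 0.05 threshold. All 11 myeloid and AML markers examined were detected. By the rule given below 7 of them were called higher in sgNPM1A, beside 10.5% of all tested genes. PTPRC, CD33, CEBPA and CD14 were not called. Summed levels of the 11 markers were 2977.0 and 3066.2 CPM in sgRNA Ctrl and 6409.0 and 7067.5 CPM in sgNPM1A. Lysozyme (LYZ) took most of this difference, at 270.6 and 215.1 CPM in sgRNA Ctrl and 2642.8 and 3367.3 CPM in sgNPM1A, and without LYZ the sums were 2706.4 and 2851.1 against 3766.2 and 3700.3 CPM. Among 11 markers of other cell types, PECAM1 had no matching entry and 6 (CD3E, CD3D, MS4A1, HBB, EPCAM and ALB) were at 0 counts in all 4 libraries. KRT18, an epithelial keratin, was at 2.05 and 2.47 CPM in sgRNA Ctrl and at 0.502 and 0.612 CPM in sgNPM1A. The part of these marker differences in the values below was not tested.

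A gene was called at an adjusted p under 0.05 with a log2 fold change of at least 0.32 in size, which is an increase by 25% or a decrease by 20%. AFF1 was the 1 member called, lower in sgNPM1A, and 3 further members, KMT2A, MLLT1 and PSIP1, had an adjusted p under 0.05 with a smaller change, also lower. Across all tested genes 20.8% were called, 10.3% lower and 10.5% higher, and the members, with 1 of 10 lower and 0 of 10 higher by edgeR (0 higher also by DESeq2 and at an unadjusted p under 0.05), were near or under these shares. Without the fold threshold the members counted 4 of 10, all lower. Of all tested genes 26.0% then passed in either direction, and 2057 of the 15718 were lower. In 8 of the 10 members the 2 libraries of one condition lay outside the 2 of the other, which held for 63.1% of all tested genes. The median change of the members was -0.10 on the log2 scale, and the median size of change was 0.17 against 0.22 over all tested genes. Nothing in the labels says that libraries of a condition came from separate cultures, although the study's legends call them biological replicates, so the p-values measure the spread between these libraries, which may be technical.

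**Figure D1:**
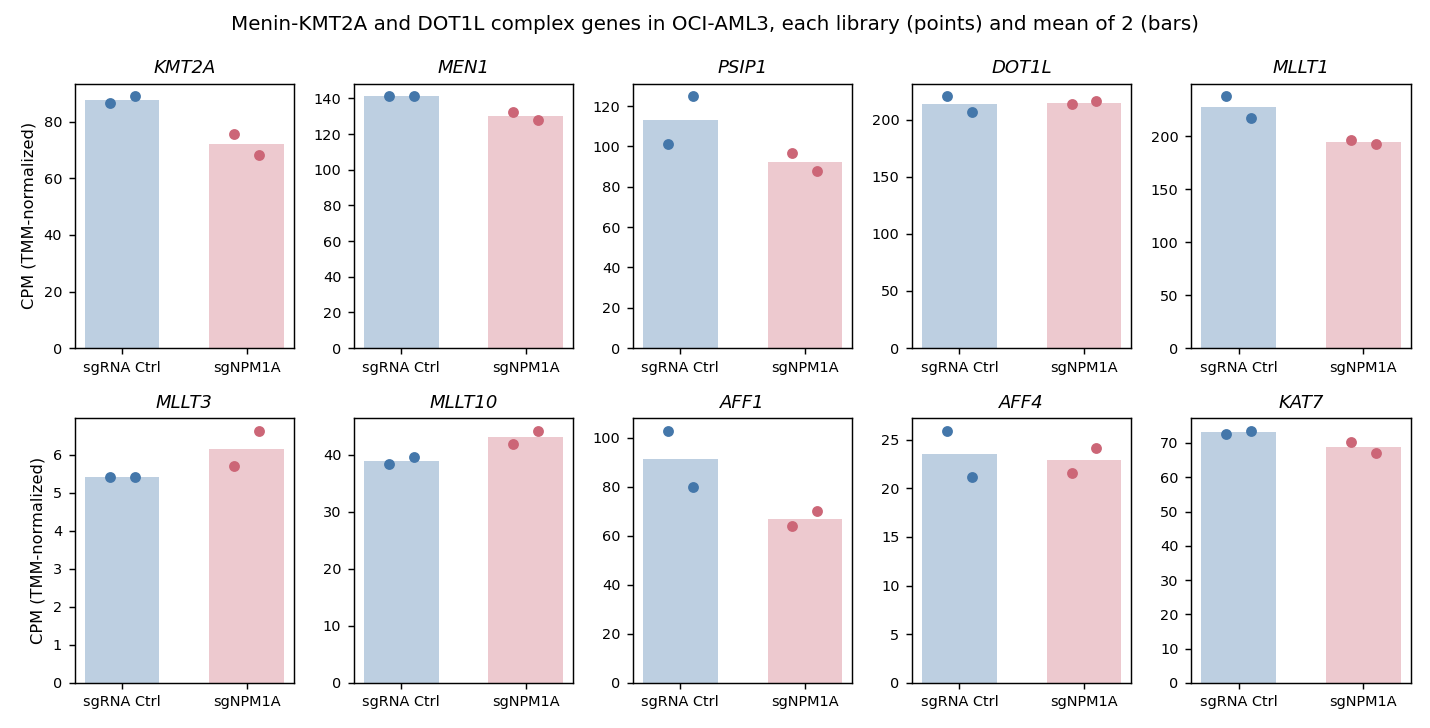
Level of each member in CPM (TMM-normalized, linear axes from 0, a separate scale for each gene), with points for the 2 sgRNA Ctrl and 2 sgNPM1A libraries and bars for their mean. AFF1 ranges from 79.9 to 102.7 CPM in sgRNA Ctrl and from 63.8 to 70.2 CPM in sgNPM1A, and only in DOT1L and AFF4 do the conditions overlap.

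AFF1 (ENSG00000172493, chr4:86935011-87141039) encodes AF4, the scaffold of a super elongation complex and a common KMT2A fusion partner. Its level was 102.7 and 79.9 CPM in sgRNA Ctrl and 63.8 and 70.2 CPM in sgNPM1A. Both sgNPM1A libraries were below both controls, which themselves differed by more than the conditions' nearest libraries did. Its log2 fold change was -0.45 ± 0.11 (SE; 95% interval -0.68 to -0.21; edgeR adjusted p = 0.0106), or -26.6%. The size of this change was at the 74.9th percentile of all tested genes. Without sgRNA Ctrl 1 the change was -0.26 with an adjusted p of 0.0495, and AFF1 was then no longer called.

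Its paralogue AFF4 (ENSG00000072364, chr5:132875395-132963634), the other scaffold through which P-TEFb is brought to stalled RNA polymerase, was measured at 25.9 and 21.2 CPM in sgRNA Ctrl and at 21.6 and 24.2 CPM in sgNPM1A. The conditions overlapped, and its log2 fold change was -0.04 with a 95% interval of -0.29 to 0.21 (edgeR adjusted p = 0.843). This interval lies within the fold threshold of 0.32. The sign of the AFF4 difference turned without sgRNA Ctrl 1, to 0.11 on the log2 scale, and without sgNPM1A 1, to 0.05.

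KMT2A (ENSG00000118058, chr11:118436492-118526832), the methyltransferase at the center of the complex, was measured at 86.5 and 89.0 CPM in sgRNA Ctrl and at 75.6 and 68.3 CPM in sgNPM1A. Controls were close to each other and both were above both KO libraries. A log2 fold change of -0.29 ± 0.08 (SE; 95% interval -0.45 to -0.12) had an edgeR adjusted p of 0.0172 and did not reach the fold threshold. When a trend of the fold changes with GC content and transcript length was subtracted, an alternative chosen after seeing the data, KMT2A was at -0.16 with an adjusted p of 0.151, and without sgNPM1A 2 it was at -0.21 with an adjusted p of 0.323. Of the 50-base words in its annotated transcripts 17.6% also belong to other genes, nearly all to an overlapping gene model that is not in the count table, and 0.395% to genes that are.

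MEN1 (ENSG00000133895, chr11:64803516-64811294), which encodes menin, was measured at 141.2 CPM in both sgRNA Ctrl libraries and at 132.3 and 127.7 CPM in sgNPM1A. Both sgNPM1A libraries were the lower ones, with a change of -7.93%. On the log2 scale the change of -0.12 (95% interval -0.26 to 0.02) did not pass the test (edgeR adjusted p = 0.207) and its interval stays within the fold threshold.

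PSIP1 (ENSG00000164985, chr9:15464066-15510970) encodes LEDGF, which tethers menin and KMT2A to transcribed chromatin through a PWWP domain. Levels were 101.2 and 124.9 CPM in sgRNA Ctrl and 96.6 and 87.8 CPM in sgNPM1A. The conditions did not overlap, but sgRNA Ctrl 1 was nearer to sgNPM1A 1 than to the other control. Its log2 fold change was -0.29 ± 0.10 (SE; 95% interval -0.51 to -0.08; edgeR adjusted p = 0.0451), short of the fold threshold. Without sgRNA Ctrl 2 it was -0.13 with an adjusted p of 0.253, and without sgRNA Ctrl 1 it was -0.44 with an adjusted p of 0.00367, in which case PSIP1 was called.

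**Figure D2:**
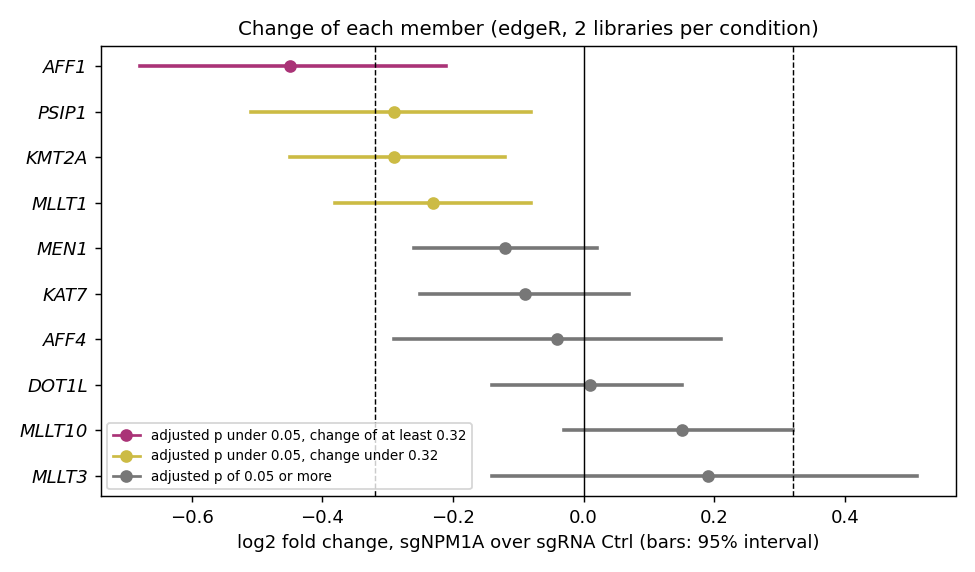
Log2 fold change of each member, sgNPM1A over sgRNA Ctrl, with 95% intervals from the edgeR fit of 2 libraries per condition; dashed lines mark the fold threshold (0.32). AFF1 at -0.45 is the only member past the line with an adjusted p under 0.05, the intervals of MEN1, KAT7, AFF4 and DOT1L stay within the lines, and that of MLLT10 ends at the upper one.

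DOT1L (ENSG00000104885, chr19:2163933-2232578), which methylates H3K79 along transcribed genes, was measured at 220.5 and 207.1 CPM in sgRNA Ctrl and at 213.4 and 216.3 CPM in sgNPM1A. Both KO libraries lay between the controls. The log2 fold change was 0.01 with a 95% interval of -0.14 to 0.15 (edgeR adjusted p = 0.951), and its sign turned under library size scaling (-0.03). With the GC and length trend subtracted it was 0.17 (edgeR adjusted p = 0.0802). Genes on the opposite strand cover 4.6% (PLEKHJ1) and 6.65% (a long noncoding RNA) of the exonic bases of DOT1L, and whether the reads were counted by strand is not given in the sources used here.

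MLLT10 (ENSG00000078403, chr10:21533756-21743630), whose product AF10 stimulates DOT1L, was measured at 38.4 and 39.6 CPM in sgRNA Ctrl and at 42.0 and 44.2 CPM in sgNPM1A. Here the KO libraries were the higher ones. Its log2 fold change of 0.15 (95% interval -0.03 to 0.32) did not pass the test (edgeR adjusted p = 0.209).

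MLLT1 (ENSG00000130382, chr19:6210381-6279975) encodes ENL, a YEATS domain reader of acetylated histone H3 on which many AML lines depend. Its levels were 237.6 and 217.3 CPM in sgRNA Ctrl and 196.0 and 192.3 CPM in sgNPM1A. Each KO library was below each control, and the log2 fold change was -0.23 ± 0.07 (SE; 95% interval -0.38 to -0.08; edgeR adjusted p = 0.0298), short of the fold threshold. With the GC and length trend subtracted the change was -0.11 with an adjusted p of 0.261, and with the replicate block the adjusted p was 0.109. Leaving out 1 library moved its adjusted p above 0.05 in 3 of 4 fits, the exception being the fit without sgRNA Ctrl 2.

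MLLT3 (ENSG00000171843, chr9:20341669-20622499), which encodes AF9, the other reader of this kind, was the member with the fewest counts, from 138 to 184 per library. It was measured at 5.43 and 5.41 CPM in sgRNA Ctrl and at 5.70 and 6.63 CPM in sgNPM1A. Both KO libraries were above both controls. The log2 fold change of 0.19 did not pass the test (edgeR adjusted p = 0.398), and its interval, from -0.14 to 0.51, reaches past the fold threshold upward, so an increase of that size is not excluded.

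KAT7 (ENSG00000136504, chr17:49788681-49835026), the catalytic subunit of the HBO1 complex that acetylates H3K14, was measured at 72.7 and 73.5 CPM in sgRNA Ctrl and at 70.4 and 67.0 CPM in sgNPM1A. The KO libraries were the lower ones, with a change of -6.04%. A log2 fold change of -0.09 (95% interval -0.25 to 0.07) did not pass the test (edgeR adjusted p = 0.398) and its interval stays within the fold threshold.

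The ratio of a member to its paralogue within a library does not depend on how libraries are scaled. The log2 ratio of MLLT3 to MLLT1 counts was -5.45 and -5.33 in sgRNA Ctrl and -5.10 and -4.86 in sgNPM1A. Both KO libraries thus had more AF9 mRNA per ENL mRNA, by 1.33-fold. AFF1 to AFF4 stood at 1.99 and 1.91 in sgRNA Ctrl and at 1.56 and 1.53 in sgNPM1A, a ratio of AFF1 to AFF4 that was 0.755 times that of the controls. This difference of -0.40 on the log2 scale stayed between -0.44 and -0.37 when any 1 library was left out, and the ratio had a smaller spread among the controls than AFF1 itself. The log2 ratio of MLLT10 to MLLT6, which encodes the AF10 relative AF17, was -1.81 and -1.72 in sgRNA Ctrl and -1.49 and -1.36 in sgNPM1A, higher by 1.27-fold. Relative to HDGFL2, the other LEDGF-like protein, PSIP1 was at -1.08 and -0.84 in sgRNA Ctrl and at -1.17 and -1.21 in sgNPM1A, 0.850 times the control ratio. This PSIP1 difference, -0.24 on the log2 scale, was -0.11 without sgRNA Ctrl 2 and -0.36 without sgRNA Ctrl 1. KMT2A relative to KMT2B, the closest methyltransferase, was at -1.11 and -0.95 in sgRNA Ctrl and at -0.95 and -1.14 in sgNPM1A, values that overlap. KMT2B itself had a log2 fold change of -0.27 (edgeR adjusted p = 0.0132), beside -0.29 for KMT2A. The ratios were not corrected for the trend of the fold changes with GC content and transcript length. On the log2 scale this trend was -0.02 for MLLT3 and -0.11 for MLLT1, and -0.01 for MLLT10 and -0.14 for MLLT6. It was -0.08 for AFF1 and -0.06 for AFF4, 0.04 for PSIP1 and -0.06 for HDGFL2, and -0.13 for KMT2A and -0.18 for KMT2B. No test was run on these 5 ratios, and the smallest p that permuting these 4 libraries exactly would allow is 0.333.

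**Figure D3:**
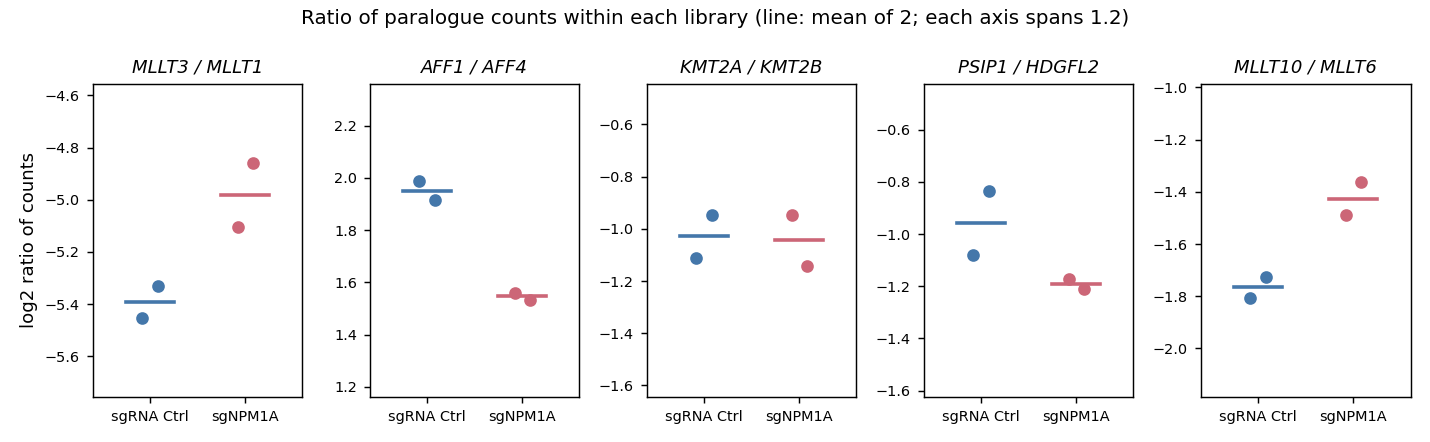
Log2 ratio of the counts of a member to those of its paralogue in each library (points), with the mean of 2 as a line; every axis spans the same range of log2 units. The libraries of the conditions separate in 4 pairs, among them AFF1/AFF4 (1.99 and 1.91 against 1.56 and 1.53), and overlap in KMT2A/KMT2B. Of all tested genes taken singly 63.1% separate in this way, and the share among ratios of other gene pairs was not computed.

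Levels can be compared between genes only per length, here as CPM per kb of the canonical transcript. In sgRNA Ctrl the order was MEN1 (mean 52.1), MLLT1 (50.2), PSIP1 (33.8), DOT1L (27.9), AFF1 (9.86), KAT7 (7.68), MLLT10 (7.58), KMT2A (5.28), AFF4 (2.47) and MLLT3 (0.806 CPM per kb). MEN1 and MLLT1 overlapped in this order, as did KAT7 and MLLT10, and the other neighbours were apart in both libraries. The methyltransferase KMT2A was thus measured at a lower level per kb than its dock MEN1 in every library. In sgNPM1A PSIP1, at 26.3 and 28.9 CPM per kb, overlapped DOT1L, at 27.9 and 28.3, while MLLT10 (mean 8.38) stood above AFF1 (7.23) and KAT7 (7.22). MEN1 stayed at the top (47.9) and MLLT3 at the bottom (0.917 CPM per kb).

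The partners of these proteins were read from lists of complex subunits. Of 18 subunits of H3K4 methyltransferase complexes, 2 were called lower and 0 higher (0 higher also by DESeq2 and at an unadjusted p under 0.05), a share near the 10.3% of all tested genes that were called lower. Their median log2 fold change was -0.12. SETD1B, a catalytic subunit of the COMPASS complex, was measured at 97.1 and 91.5 CPM in sgRNA Ctrl and at 68.8 and 69.4 CPM in sgNPM1A (log2 fold change -0.45, edgeR adjusted p = 8.02e-04). HCFC1, a host cell factor found with KMT2A, KMT2B and SETD1 enzymes, went from 323.9 and 290.4 CPM to 239.2 and 248.0 CPM (log2 fold change -0.33, edgeR adjusted p = 0.00542). For both genes the libraries of the conditions were clear of each other. Including the smaller differences, 5 of the 18 had an adjusted p under 0.05, all lower. At this threshold 26.0% of all tested genes passed in either direction, and 2057 of the 15718 were lower. HCFC1 was not called without sgRNA Ctrl 1 or sgNPM1A 1 (1 gene called in each), and 4 genes were called without sgRNA Ctrl 2. With the GC and length trend subtracted neither SETD1B nor HCFC1 was called, and the 1 gene called was TASP1, named here for this reason alone.

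Of 10 further genes of the super elongation complex 8 were tested (not AFF2 and ELL3), and 2 were called, both higher, whereas AFF1 was lower. Of all tested genes 10.5% were called higher. ELL2, an elongation factor that AFF1 and AFF4 hold, was measured at 14.2 and 10.9 CPM in sgRNA Ctrl and at 17.6 and 22.7 CPM in sgNPM1A (log2 fold change 0.68, edgeR adjusted p = 0.00631). It shares 6.11% of its 50-base words with a pseudogene, ELL2P1. EAF2, an ELL-associated factor, was measured at 16.4 and 17.2 CPM in sgRNA Ctrl and at 21.2 and 22.7 CPM in sgNPM1A (log2 fold change 0.38, edgeR adjusted p = 0.0135). The list's median was 0.03, and its lowest log2 fold change was -0.11. Only EAF2 was called without sgRNA Ctrl 2 and only ELL2 without sgNPM1A 2, and EAF2 was not called with the GC and length trend subtracted.

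Around KAT7, 13 HBO1 complex subunits and MYST acetyltransferases were tested, of which 1 was called higher and 3 lower, with a median of -0.18, beside 10.5% and 10.3% of all tested genes. JADE2, a scaffold of the HBO1 complex, was measured at 104.9 and 87.0 CPM in sgRNA Ctrl and at 56.0 and 58.1 CPM in sgNPM1A (log2 fold change -0.75, edgeR adjusted p = 1.21e-04). Its paralogue JADE1 was at 32.3 and 26.5 CPM in sgRNA Ctrl and at 37.6 and 38.6 CPM in sgNPM1A (log2 fold change 0.38, edgeR adjusted p = 0.0176). JADE1 and JADE2 thus moved in opposite directions while KAT7 itself did not pass the test. The log2 fold changes of JADE3 (-0.19), BRPF1 (-0.26) and BRPF3 (-0.18), named here beside JADE1, were negative and not called. BRPF1 had an edgeR adjusted p of 0.0355. BRD1, another scaffold, was lower (log2 fold change -0.36, edgeR adjusted p = 0.00343), as was the acetyltransferase KAT6B (log2 fold change -0.34, edgeR adjusted p = 0.0257), although KAT6B had an adjusted p of 0.0632 with the replicate block and 0.0729 by DESeq2. JADE2 alone was called lower without sgRNA Ctrl 1, without sgNPM1A 1 and with the GC and length trend subtracted, while 6 genes were called lower without sgRNA Ctrl 2, and JADE1 was not called without sgRNA Ctrl 2 or sgNPM1A 2.

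In the PAF1 complex, which binds KMT2A at transcribed genes, 1 of 6 subunits was called, in the higher direction. Of all tested genes 20.8% were called in either direction and 10.5% higher. SKIC8, a subunit shared with the cytoplasmic SKI complex, was measured at 33.2 and 36.5 CPM in sgRNA Ctrl and at 50.5 and 52.6 CPM in sgNPM1A (log2 fold change 0.56, edgeR adjusted p = 4.86e-04). The other 5 were between -0.15 and 0.06. Among the AF10, YEATS and LEDGF relatives MLLT6, YEATS2, YEATS4 and HDGFL2, 0 of 4 were called (0 also by DESeq2 and 0 without the fold threshold), and MLLT6, at a log2 fold change of -0.19, had an edgeR adjusted p of 0.0506. MLLT6 was also the 1 of these 4 with an unadjusted p under 0.05 (0.0133).

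**Figure D4:**
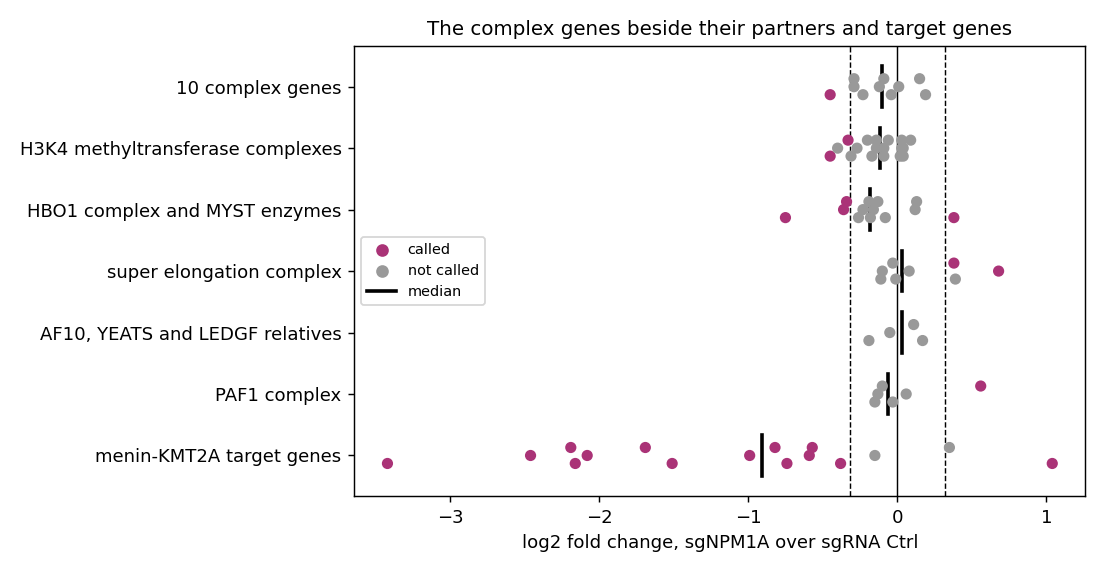
Log2 fold change of every tested gene in the member list, the 5 partner lists and the target list (points; called genes in color; short vertical lines for list medians; dashed lines for the fold threshold). The medians of the members (-0.10) and of the partner lists lie between -0.18 and 0.03, and that of the menin-KMT2A target genes at -0.91. The lists were assembled with earlier results of these data known.

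Target genes of the complex were read beside the genes that encode it. Of 16 genes listed as known menin-KMT2A targets, 13 were called lower and 1 higher, against 10.3% and 10.5% of all tested genes. Their median log2 fold change was -0.91. Their median size of change was 1.02, beside 0.17 for the 10 members and 0.22 for all tested genes. This list was assembled with earlier results of these data known, so its count and its medians are not independent evidence of its direction or size of change. The called genes with the smallest adjusted p were HOXA10 (log2 fold change -2.19), HOXA9 (-1.69), MEF2C (-1.51), CDKN2C (-0.99), MEIS1 (-2.46) and HOXB3 (-2.16). MEIS1, the homeobox partner of HOXA9, was measured at 38.0 and 37.2 CPM in sgRNA Ctrl and at 8.43 and 5.26 CPM in sgNPM1A (edgeR adjusted p = 1.13e-06). HOXA9 was at 56.3 and 62.2 CPM in sgRNA Ctrl and at 19.2 and 17.5 CPM in sgNPM1A (edgeR adjusted p = 3.21e-07). FLT3, a growth factor receptor, was the 1 target called higher, from 10.8 and 9.15 CPM to 20.2 and 20.9 CPM (log2 fold change 1.04, edgeR adjusted p = 5.73e-05). HOXB5 (0.35) and JMJD1C (-0.15) did not pass the test. These last 3 genes are named because of their values.

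The changes of the members were recomputed under other tools, scalings, filters and subsets of the libraries. Of 140 log2 fold changes recomputed under 14 alternatives, 122 kept their sign and their side of the 0.05 threshold, 11 lost and 1 gained an adjusted p under 0.05, and 6, all of DOT1L or AFF4, changed sign. AFF1 was called under every alternative with all 4 libraries and the 0.32 threshold. KMT2A, PSIP1 and MLLT1 stayed negative throughout, but did not reach the fold threshold under most alternatives. All losses of an adjusted p under 0.05 fell on KMT2A, PSIP1 and MLLT1. Apart from AFF1, the remaining members had no adjusted p under 0.05 to lose.

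**Figure D5:**
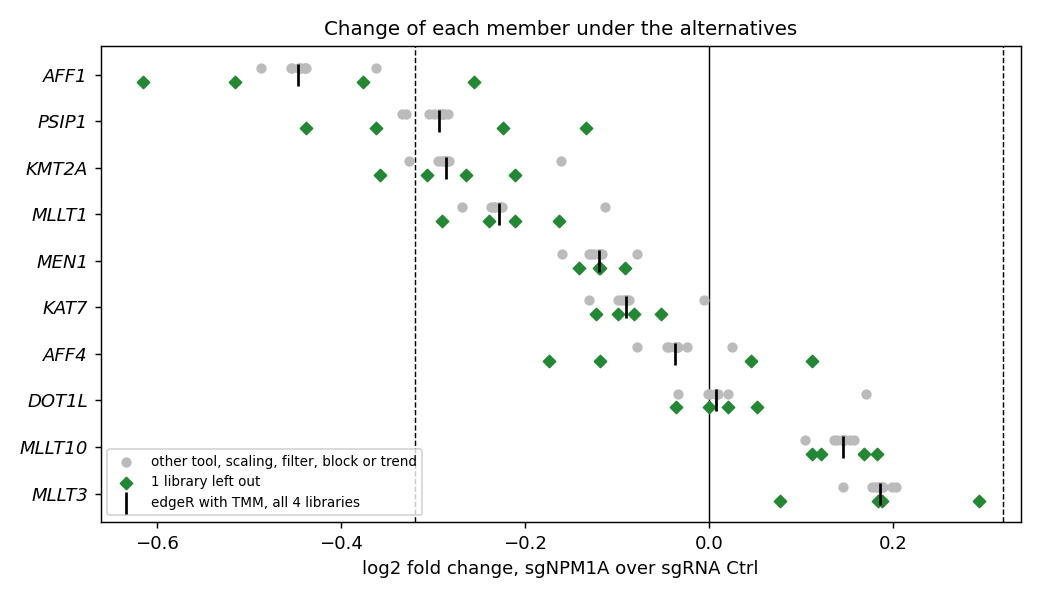
Log2 fold change of each member with edgeR and all 4 libraries (vertical lines), under other tools, scalings, filters, blocks and the trend correction (gray circles), and with 1 library left out (green diamonds); dashed lines mark the fold threshold. AFF1 ranges from -0.62 without sgRNA Ctrl 2 to -0.26 without sgRNA Ctrl 1, and DOT1L and AFF4 fall on both sides of 0.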

How the data were processed

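RNA-Seq of OCI-AML3 cells was analysed in 4 libraries, grouped by the labels. The authors mapped the paired-end reads with STAR to hg38, per the labels and methods, and deposited raw counts per Ensembl gene. The program that counted the reads, the annotation release and the use of strand are not given in the sources used here. The labels give alpha-MEM as the medium, whereas the methods give RPMI. Symbols were found for 55603 of the 58037 genes, and 0 entries carried an ERCC name.

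The counts were analysed with edgeR 4.0.16 in R 4.3.3, with filterByExpr (minimum count 10), TMM factors (0.985 to 1.01) and the robust quasi-likelihood F test, two-sided, with BH adjustment over 15718 genes. A gene was called at an adjusted p under 0.05 and a log2 fold change of at least 0.32 in size, which is the fold threshold of the study. Intervals of 95% come from the same fit, CPM are TMM-normalized, and intervals and the floor of 3 counts cover counting error and library spread only. Alternatives used DESeq2 1.42.0, limma 3.58.1 on quantile-normalized log2 CPM, other scalings and filters, blocks, other fold thresholds and the omission of each library. The scripts were tested on simulated data. Positions and promoter sequences are those of RefSeq on GRCh38.p14, and transcript lengths, overlaps and shared 50-base words those of GENCODE annotation.

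The members and lists were chosen with earlier results of these data known. Named genes are all members, the called genes of each partner and target list (the 6 with the smallest adjusted p where more than 6 were called) and the paralogue pairs. Numbers shared by the libraries did not pair them, since the deviations of same-numbered libraries had a correlation of -0.13 over the tested genes and of -0.523 over those above 10 CPM, so that libraries with different numbers deviated together. Of the markers of other cell types, 1 is not reported here.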

Additional observations from a re-analysis of the deposited data

How the results depend on the processing

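With 2 libraries per condition, 1 library decided several of the members' calls, and a fit without a library assumes that the lone sample varies like the other condition. The count of 1 member called, lower, became 3 with library size only as the scaling (AFF1, KMT2A and PSIP1) and 2 with the GC content and length trend subtracted (AFF1 and PSIP1). By edgeR it was 4 with no fold threshold, as many as had an unadjusted p under 0.05, and 0 at a fold of at least 2. With 1 library left out it lay between 1 and 3. It was 3 without sgNPM1A 1 (AFF1, KMT2A and PSIP1), and without sgRNA Ctrl 1 the 1 gene called was PSIP1 and not AFF1. At a fold of at least 2, 1000 of all tested genes were called, 498 higher and 502 lower. In place of 23 partner and target genes, 14 of them targets, 8 were called, 1 higher and 7 lower. All 8 were among the 16 target genes, and each partner list had 0. The 5 partner and target genes called higher were between 3 and 6 when a library was left out, with 3 without sgRNA Ctrl 2 or sgNPM1A 2.

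The change of NPM1 stayed negative, at -0.22 with a replicate block (adjusted p = 0.156) and between -0.2563 and -0.18 with a library left out, where its edgeR adjusted p was 0.0746 without sgRNA Ctrl 2, 0.203 without sgNPM1A 1 and 0.430 without sgNPM1A 2. With limma on quantile-normalized log2 CPM the change of NPM1 was larger in size, at -0.4166 (limma adjusted p = 0.00108). DOT1L turned to -0.0332 with library size only and to -0.0015 with upper-quartile scaling. It was 0.17 (edgeR adjusted p = 0.0802) with the GC content and length trend subtracted, and lay between -0.0363 and 0.0522 with a library left out. AFF4 turned to 0.0247 with the GC content and length trend subtracted and lay between -0.17 and 0.11 with a library left out. The cause of these shifts was not tested.

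PSIP1 had an adjusted p above 0.05 with limma (0.0726), with upper-quartile scaling (0.0571) and without sgRNA Ctrl 2 (0.253) or sgNPM1A 2 (0.271). With the replicate block 3241 genes were called, of which 3123 were also among the 3272 called without it, and 1 of the 10 members. Since the correlation of same-numbered libraries was negative, the numbers were also crossed, a choice made after seeing the data, which called 3873 genes and 1 member. The scalings moved the median of all genes by at most 0.04 on the log2 scale.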

Other observations

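The scaffolds JADE1 and JADE2 of the HBO1 complex separated further as a ratio than any of the 5 paralogue pairs above. This pair was chosen after its values were seen and carries no test. The log2 ratio of JADE1 to JADE2 counts was -1.70 and -1.72 in sgRNA Ctrl and -0.58 and -0.59 in sgNPM1A, a difference of 1.13 or 2.18-fold. The libraries of each condition lay close together and the conditions were apart, whereas the change of KAT7, the enzyme these scaffolds hold, was -0.09 on the log2 scale and did not pass the test.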
